A study of Mus musculus with 2 samples.

Results

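A set of 10 genes of hemoglobin, heme and iron handling were followed in whole mouse kidney on 2 two-colour Agilent oligonucleotide arrays. The list holds the globin genes Hba-a1, Hbb-b1 and Hbb-b2, the 2 genes of the first enzyme of heme synthesis (Alas1 and Alas2), the heme-degrading Hmox1, the plasma scavengers Hp and Hpx, and the iron genes Cp and Tfrc. They were picked by name among the probes that were not controls. Of the 10 genes, 8 had a probe under their own name, and Hpx was found under the older name Hpxn through its transcript accession, so that 9 probes of 20868 belonged to them, 1 probe and 1 spot a gene. Hbb-b1 was not analysed here. Tfrc did not pass the filter on dim spots, which left 8 of the 18590 genes tested.

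Each array carried kidney RNA labelled Glis2 KO (called mutant here) in one dye and kidney RNA labelled Glis2 WT (wild type) in the other, and the dyes were swapped between the arrays. The mutant RNA carried Cy3 on replicate 1 and Cy5 on replicate 2. Glis2 codes for a zinc finger transcription factor, and loss of its human counterpart causes nephronophthisis, a fibrotic kidney disease of childhood. The series description gives Glis2 mutant and wild type mice at postnatal day 25 and 60, with 3 kidneys to a pool, 2 independent experiments and duplicate arrays, but the labels give neither the age behind each array nor whether the arrays share RNA pools. The nature of the Glis2 allele, the strain and the sex of the mice, and whether blood was flushed from the kidneys are not given in the sources used here. The p-values measure only how far these arrays differ, which may be technical spread. In the limma test used, the spread of each gene is drawn towards a value pooled over all genes.

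Hemoglobin is built in red cell precursors from alpha globin, beta globin and heme, and circulating reticulocytes still carry globin RNA. Heme synthesis begins with 5-aminolevulinate synthase, which exists as an erythroid enzyme (Alas2) and a housekeeping enzyme (Alas1), the form that liver and kidney cells use. When red cells break, haptoglobin (Hp) binds free hemoglobin, hemopexin (Hpx) binds free heme, heme oxygenase 1 (Hmox1) splits heme inside cells and releases its iron, the ferroxidase ceruloplasmin (Cp) oxidises iron as it leaves cells, and the transferrin receptor (Tfrc) takes iron up.

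The promoters of the erythroid genes are shown because GATA factors and CACC-box factors are known to act at erythroid genes, and that of Alas1 because it is the housekeeping counterpart of Alas2. Each is the window of 250 bases before an annotated transcript start, 5′ to 3′ on the gene's strand, from RefSeq with the build GRCm38.p6. The promoter table used here matched 6 of the 10 genes by symbol. Capitals mark GATAA or CACCC on either strand, the reverse strand reading TTATC or GGGTG.
Hba-a1 promoter, chr11:32283422-32283671 (+ strand): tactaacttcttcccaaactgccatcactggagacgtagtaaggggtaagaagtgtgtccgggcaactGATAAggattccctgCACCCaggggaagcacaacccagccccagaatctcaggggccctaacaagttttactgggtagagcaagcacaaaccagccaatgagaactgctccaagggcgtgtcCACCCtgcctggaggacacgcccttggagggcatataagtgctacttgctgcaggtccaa
Alas2 promoter, chrX:150547167-150547416 (+ strand): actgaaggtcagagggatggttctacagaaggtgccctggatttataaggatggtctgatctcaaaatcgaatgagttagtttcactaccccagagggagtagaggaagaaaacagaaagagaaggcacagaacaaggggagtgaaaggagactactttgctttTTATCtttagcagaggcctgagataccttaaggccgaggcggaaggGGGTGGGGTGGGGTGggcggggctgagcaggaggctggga
Alas1, second start, promoter, chr9:106247731-106247980 (- strand): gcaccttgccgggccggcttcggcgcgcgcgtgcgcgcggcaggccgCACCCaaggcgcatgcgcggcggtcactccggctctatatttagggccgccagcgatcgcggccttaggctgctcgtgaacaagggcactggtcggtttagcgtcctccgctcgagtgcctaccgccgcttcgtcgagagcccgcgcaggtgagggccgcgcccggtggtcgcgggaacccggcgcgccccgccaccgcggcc
The Hba-a1 window holds GATAA 182 bases before the start and CACCC at 167 and 60 bases. The Alas2 window holds GATAA on the reverse strand at 86 bases and 3 adjoining copies of CACCC on the reverse strand at 40, 35 and 30 bases. Neither window of Alas1 holds GATAA, and each has 1 CACCC. The windows of Cp, Hpx and Tfrc hold no GATAA either. Among 32851 windows of the same length, 22.6% hold GATAA, 52% hold CACCC and 10.1% hold both, so the letters alone are common, and a match is not evidence of a bound site.

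Per channel, 94.6% to 97.4% of spots were flagged as well above background, and 7 to 17 as saturated. The log2 ratios of mutant over wild type had a median over all genes of -0.00 on replicate 1 and 0.02 on replicate 2. Their Pearson r between the arrays was 0.584 over genes, which are not independent replicates. Spots of the 50 probes printed more than once spread by a median SD of 0.0397 on replicate 1 and 0.158 on replicate 2 (log2 scale), so replicate 1 was the more precise array. The kidney markers were present: 13 of 14 tubule and podocyte markers passed the filter (Slc12a1 did not). Of these, 1 was called lower in mutant RNA and 0 higher, where 1.18% of all genes tested were called lower and 3.67% higher. The lower one was Slc34a1, the phosphate transporter of the proximal tubule, at a log2 ratio of -0.61. Of the 13 markers, 9 lay below 0 and 4 above, with a median of -0.14, where 48.3% of all genes tested lay below 0. At an unadjusted p under 0.05 limma gave 5 lower and 1 higher. Over the alternative ways of processing the counts called ran from 0 to 4 lower and from 0 to 1 higher. Umod and Kap had a mean log2 intensity of 15.99, near the scanner's ceiling, where a difference can be flattened. Glis2 itself had 365 and 207 units of normalised intensity in mutant RNA and 293 and 185 in wild type RNA, a mean log2 ratio of 0.24 ± 0.110 (moderated SE, n = 2 arrays, limma adjusted p = 0.332). Which part of the gene the allele removes is not given in the sources used here, so its probe does not check the labels.

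Among the 8 genes tested, the globins and both 5-aminolevulinate synthase genes were lower in mutant RNA, Hp and Cp were higher, and Hmox1 and Hpx did not pass the test. That is 4 genes called lower and 2 called higher at a limma adjusted p under 0.05, where 1.18% of all genes tested were called lower, 3.67% higher and 4.85% in either direction. On both arrays 4 of the genes were below 0, as were 28.9% of all genes tested, and 3 were above 0, as were 31.8%. By size, Hbb-b2 and Alas2 were at least 1.5-fold lower on both arrays, as 0.527% of all genes were, and Hp and Cp at least 1.5-fold higher on both, as 2.18% of all genes were. In each comparison below, intensities are normalised spot brightness in arbitrary units with an offset of 50 added, and can be set against each other only within a gene and an array.

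**Figure D1:**
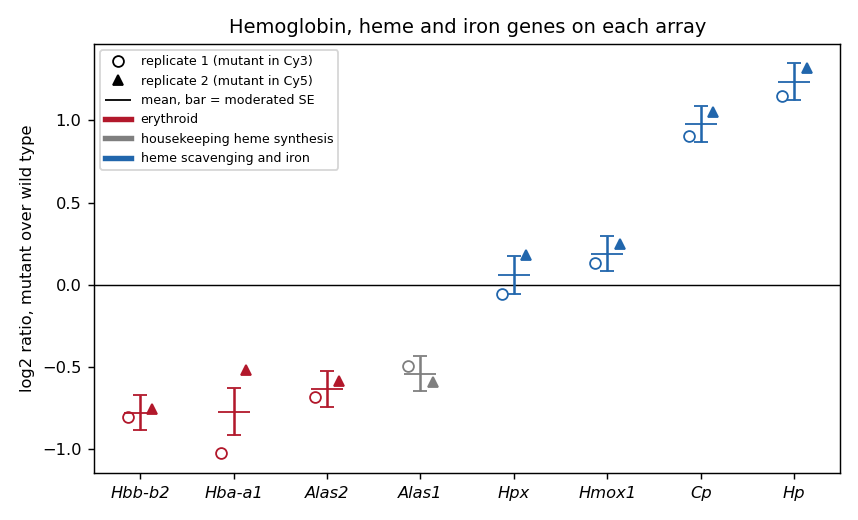
Log2 ratio of mutant over wild type for the 8 genes tested, one column a gene. Open circles are replicate 1 (mutant in Cy3), triangles replicate 2 (mutant in Cy5), and the bar is limma's mean ± moderated SE; all points of the erythroid genes (red) and Alas1 (grey) lie below 0, all points of Cp and Hp lie above 0.9, and Hpx crosses 0.

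Hba-a1, an adult alpha globin gene, had an intensity of 28993 in mutant RNA and 59001 in wild type RNA on replicate 1, and of 43680 in mutant RNA and 62470 in wild type RNA on replicate 2. The mutant value was the lower one on each array, and the gap was wider on replicate 1. The log2 ratios were -1.03 and -0.52, with a mean of -0.77 ± 0.141 (moderated SE, n = 2), or 1.71-fold lower, and a limma adjusted p of 0.0225. The SD between the arrays, 0.360, was the largest of the 8 genes. Saturated pixels were found in the wild type channel only, 3 of 58 pixels on replicate 1 and 19 of 59 on replicate 2, against 0 in the mutant channel of either array, and neither spot carried the scanner software's saturation flag. Saturated pixels have lost brightness at the scanner's ceiling, so the wild type level can be understated there, and with it the size of the ratio.

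Hbb-b2, an adult beta globin gene, had 10655 in mutant RNA and 18617 in wild type RNA on replicate 1, and 11507 in mutant RNA and 19394 in wild type RNA on replicate 2. No pixel of these spots was saturated, the mutant value was lower on each array, and the arrays differed by less than for any other of the 8 genes. Its log2 ratios were -0.81 and -0.75, with a mean of -0.78 ± 0.107 (moderated SE, n = 2, SD between arrays 0.0368), or 1.72-fold lower, and a limma adjusted p of 0.00671. Of all genes tested, 0.323% had a lower mean ratio than Hbb-b2. The paired alpha globin genes of the mouse are nearly identical in their coding sequence, and so are the adult beta globin genes, so each probe may read its neighbouring copy as well. In an extract of the whole organ, fewer red cells or reticulocytes and less globin RNA in each cannot be told apart.

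The embryonic globins did not pass the test in either direction. Hba-x had a mean log2 ratio of -0.26, Hbb-bh1 of -0.24 and Hbb-y of -0.23, with limma adjusted p-values of 0.377, 0.347 and 0.362.

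Alas2, the erythroid form of 5-aminolevulinate synthase, had 191 in mutant RNA and 307 in wild type RNA on replicate 1, and 255 in mutant RNA and 383 in wild type RNA on replicate 2. On each array the mutant value was the lower one. Log2 ratios were -0.68 and -0.59, with a mean of -0.63 ± 0.108 (moderated SE, n = 2), or 1.55-fold lower, and a limma adjusted p of 0.0164. Its spot is dim enough for the offset to matter: the scanner software's own ratio, which adds no offset, was -0.88 and -0.72.

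Alas1, the housekeeping form, had 2481 in mutant RNA and 3490 in wild type RNA on replicate 1, and 2460 in mutant RNA and 3700 in wild type RNA on replicate 2. It was lower in mutant RNA on both arrays, with log2 ratios of -0.49 and -0.59, a mean of -0.54 ± 0.108 (moderated SE, n = 2), or 1.45-fold lower, and a limma adjusted p of 0.0313. The housekeeping and the erythroid gene both fell, and the difference between them was not tested.

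All 15 listed genes of the heme synthesis pathway and its mitochondrial transport were tested. Of these, 2 were called lower (Alas1 and Alas2), 0 higher and 13 not called, where 1.18% of all genes were called lower. In all 12 lay below 0, Alas1 and Alas2 included, and 3 above, where 48.3% of all genes tested lay below 0. The list median was -0.18 (-0.12 on replicate 1 and -0.25 on replicate 2), beside 0.01 over all genes tested. Cpox, the coproporphyrinogen oxidase of a later step of the pathway, came closest, with log2 ratios of -0.63 and -0.39, a mean of -0.51 ± 0.115 and a limma adjusted p of 0.051. Clpx, the mitochondrial chaperone subunit that acts on 5-aminolevulinate synthase, had a mean of -0.34, and Fech, the ferrochelatase that inserts iron into the ring, had -0.33, with adjusted p-values of 0.153 and 0.179. These 3 genes were named after their values were seen. At an unadjusted p under 0.05 limma gave 5 genes of the list lower and 0 higher. Over the alternative ways of processing, the list's count called lower at an adjusted p under 0.05 ran from 0 to 6. The count called higher stayed at 0.

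With the settings of the report, no erythroid gene other than the adult globins and Alas2 passed the test. Of 30 listed erythroid and globin genes 22 were tested. Of these, 3 were called lower (Hbb-b2, Hba-a1 and Alas2), 0 higher and 19 not called, where 1.18% of all genes were called lower. The list median was -0.04 (0.02 and -0.07 on replicates 1 and 2), and 10 genes lay above 0 and 12 below, where 48.3% of all genes tested lay below 0. At an unadjusted p under 0.05 the counts were 3 lower and 2 higher. With a trended and robust prior 1 gene of the list was called higher. Over the alternatives the count called lower ran from 0 to 3. Slc4a1, the anion exchanger of the red cell membrane, had log2 ratios of 0.09 and -0.16. The erythroid transcription factor genes Gata1 and Klf1 had means of 0.12 and 0.06, and Tal1, which blood vessels and blood stem cells also express, had 0.32, none of them called. Rhag, of the Rh complex, had -0.00 and -0.55, and the Rh antigen gene Rhd and Hemgn did not pass the filter. Summed over the tested genes with the offset taken off, the erythroid intensity was 44371 and 60426 in mutant RNA and 82263 and 87302 in wild type RNA, a sum that the globins dominate. Slc4a1 is also expressed by intercalated cells of the collecting duct, so its probe does not read red cells alone.

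**Figure D2:**
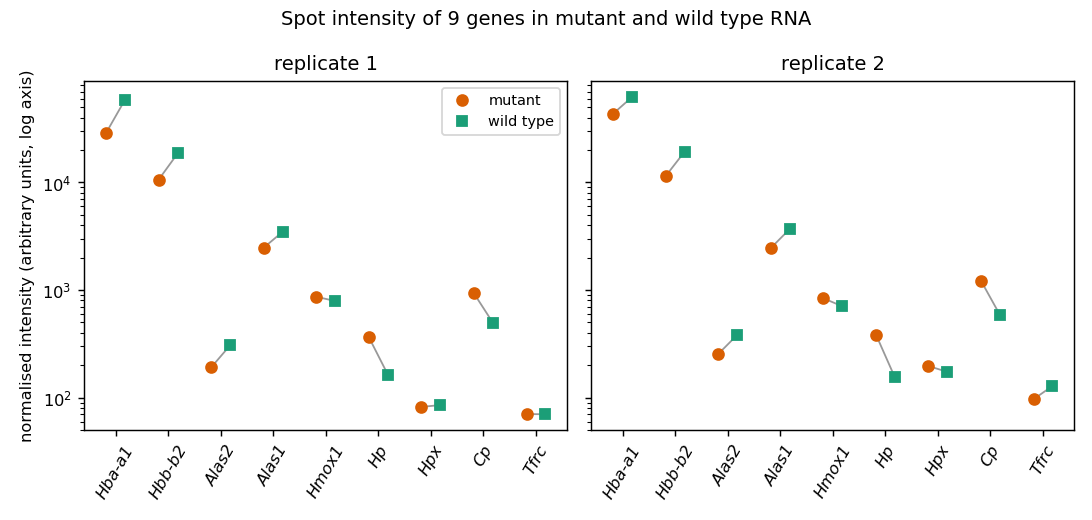
Normalised intensity (arbitrary units, log axis) of 9 genes on replicate 1 (left) and replicate 2 (right). Orange circles are mutant RNA and green squares wild type RNA, joined for each gene; only the 2 points of a gene on an array can be compared, and the lines slope up towards wild type for the globins, Alas2 and Alas1 and down for Hp and Cp on both arrays.

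Of the scavengers, Hp, which encodes haptoglobin, had 364 in mutant RNA and 164 in wild type RNA on replicate 1, and 386 in mutant RNA and 154 in wild type RNA on replicate 2. Both mutant values were more than 2-fold above the wild type values. Log2 ratios were 1.15 and 1.32, with a mean of 1.23 ± 0.111 (moderated SE, n = 2), or 2.35-fold higher, and a limma adjusted p of 0.00137. Of all genes tested, 99.5% had a lower mean ratio. The scanner software's ratio, with no offset, was larger, 1.56 and 1.75.

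Hpx, which encodes the heme carrier hemopexin, had 82.0 in mutant RNA and 85.4 in wild type RNA on replicate 1, and 197 in mutant RNA and 173 in wild type RNA on replicate 2. The arrays differed in direction, with log2 ratios of -0.06 and 0.18, a mean of 0.06 ± 0.115 (moderated SE, n = 2) and a limma adjusted p of 0.847. On replicate 1 its intensities lay close to the lowest of any spot well above background, which was 65.7 in the mutant channel and 72.3 in the wild type channel.

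Hmox1, which encodes heme oxygenase 1, had 867 in mutant RNA and 790 in wild type RNA on replicate 1, and 838 in mutant RNA and 707 in wild type RNA on replicate 2. Mutant values were above wild type on each array, as for 31.8% of all genes, but the log2 ratios of 0.13 and 0.25 averaged 0.19 ± 0.108 (moderated SE, n = 2) with a limma adjusted p of 0.448. A change of the size seen for Hp was not seen for either Hpx or Hmox1, which does not show that their levels were equal between the genotypes.

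Around these 3 genes, 17 listed genes of heme binding, uptake and breakdown were all tested, with a median of 0.06. Of these, 2 were called higher, 0 lower and 15 not called, where 3.67% of all genes were called higher. The second one called was Lrp1, an endocytic receptor that takes up the hemopexin-heme complex, with log2 ratios of 0.45 and 0.64 and a mean of 0.54 ± 0.112 (limma adjusted p = 0.0362). Cd163, the macrophage receptor for the haptoglobin-hemoglobin complex, had 0.25 and 0.58, a mean of 0.42 and an adjusted p of 0.123. The constitutive heme oxygenase gene Hmox2 had a mean of 0.06, and the biliverdin reductases Blvra and Blvrb had -0.15 and 0.16. Lrp2 and Cubn, the receptors by which the proximal tubule takes up filtered proteins, had -0.28 and -0.22, neither of them called.

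Cp, which encodes ceruloplasmin, had 931 in mutant RNA and 497 in wild type RNA on replicate 1, and 1218 in mutant RNA and 587 in wild type RNA on replicate 2. The mutant value was about 2-fold the wild type value on each array. Log2 ratios were 0.91 and 1.05, with a mean of 0.98 ± 0.110 (moderated SE, n = 2), or 1.97-fold higher, and a limma adjusted p of 0.00281.

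Tfrc, the transferrin receptor that brings iron into dividing and erythroid cells, had 70.4 in mutant RNA and 70.1 in wild type RNA on replicate 1, where neither channel was well above background. On replicate 2, where both were, it had 96.6 in mutant RNA and 128 in wild type RNA, a log2 ratio of -0.41. With no filter on dim spots its mean was -0.20 ± 0.131 (limma adjusted p = 0.522 over 19672 genes), so only replicate 2 measured Tfrc, and it is not counted among the calls.

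Of 35 listed genes of iron uptake, storage, export and sensing 32 were tested, with 3 called higher, 0 lower and 29 not called, where 3.67% of all genes were called higher, and a median of -0.04. Beside Cp these were Lcn2, which encodes the siderophore-binding lipocalin 2 (log2 ratios 1.17 and 1.75, mean 1.46 ± 0.151, limma adjusted p = 0.00205), and Trf, which encodes the plasma iron carrier transferrin (0.57 and 0.44, mean 0.51 ± 0.109, adjusted p = 0.0432). At an unadjusted p under 0.05 limma gave 6 genes of the list higher and 3 lower. Over the alternative ways of processing the count called higher ran from 0 to 4, and the count called lower from 0 to 4. The genes that follow were not called with the settings of the report and were named after their values were seen. The iron exporter Slc40a1 had a mean of 0.13, the ferritin light chain Ftl1 -0.05 and the iron hormone Hamp 0.01. Aco1 and Ireb2, the genes of the iron regulatory proteins that sense cell iron, had -0.32 and -0.28. The second transferrin receptor gene Tfr2 had -0.24.

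Set side by side, the 3 erythroid genes and the 4 scavenging and iron genes that were tested did not overlap on either array. On replicate 1 the highest erythroid log2 ratio was -0.68 and the lowest of the other group -0.06, and on replicate 2 these were -0.52 and 0.18. The group medians were -0.81 and 0.52 on replicate 1, and -0.59 and 0.65 on replicate 2. Erythroid minus scavenging medians therefore differed by -1.32 and -1.24 on the arrays, and by -1.36 on their means, with no test, since genes are not replicates; the upper median lies between Hmox1 and Cp. The difference of the means was -1.29 without Hba-a1, whose wild type spots held saturated pixels. With the settings of the report, the 3 erythroid genes were the only ones called among 22 tested erythroid and globin genes, whose list median was -0.04. In the other group, Hpx and Hmox1 were not called. Of all genes tested, 28.9% lay below 0 on both arrays and 31.8% above 0.

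**Figure D3:**
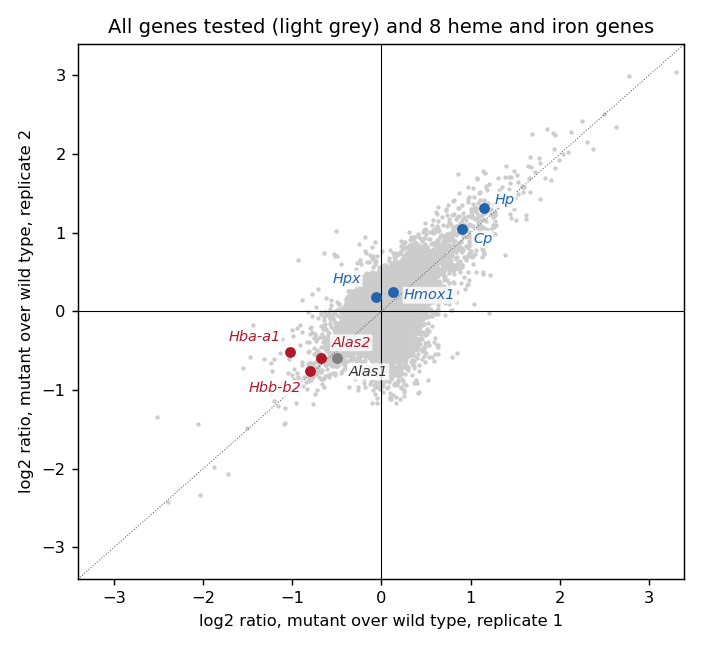
Log2 ratio of mutant over wild type on replicate 1 (x axis) and replicate 2 (y axis) for the 18590 genes tested (light grey) and the 8 heme and iron genes. Red points are the erythroid genes, dark grey Alas1 and blue the scavenging and iron genes; the dotted line marks equal ratios, and the 3 red points and Alas1 lie below 0 on both axes, with Hp and Cp above 0 on both.

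Hp and Cp are also acute phase genes, which inflammatory cytokines induce in liver and other tissues. Of 27 listed acute phase genes and their signals 26 were tested. Of these, 6 were called higher, 0 lower and 20 not called, where 3.67% of all genes were called higher. In this list 21 genes lay above 0, as did 51.7% of all genes tested, and the median was 0.18 (0.22 on replicate 1, 0.29 on replicate 2). The count called higher was 12 with no background subtraction, an offset of 100 or a trended and robust prior and 11 with scale normalization. It was 6 with an offset of 16 or median centring, and 0 with the scanner software's log ratio or the series value table. The median ranged from 0.10 to 0.32 over the alternatives. The highest were Lcn2 and Osmr, the oncostatin M receptor gene (log2 ratios 1.11 and 1.52, mean 1.32 ± 0.130, limma adjusted p = 0.00173), followed by Hp itself and Socs3, a feedback inhibitor of cytokine signalling (1.14 and 1.17, mean 1.16). Hpx belongs to the same list and was not called. Hepatocyte markers were also listed, and their relation to the Hp and Cp ratios was not tested. Of 11 tested hepatocyte markers limma called 0 (2 lower and 0 higher at an unadjusted p under 0.05). Their median was -0.04, and albumin (Alb) had a mean of -0.15. Their summed intensity was 5287 and 5040 in mutant RNA and 5973 and 5715 in wild type RNA.

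Nrf2 also governs Hmox1. Of 18 tested Nrf2 targets and regulators 0 were called higher and 2 lower, where 3.67% of all genes were called higher and 1.18% lower, and their median was 0.01. With no background subtraction, an offset of 100 or a trended and robust prior, 2 of them were called higher. The 2 called lower with the settings of the report were Gclc, the catalytic subunit of glutamate-cysteine ligase (-1.13 and -0.53, mean -0.83 ± 0.153, limma adjusted p = 0.0232), and Osgin1, a growth regulator induced by oxidative stress (-0.54, adjusted p = 0.0294). Of 19 tested hypoxia and erythropoietin genes 0 were called higher and 2 lower, with a median of 0.00. The lower ones were Ndrg1, a stress-induced gene (-0.55, adjusted p = 0.0287), and Vegfa, the vascular endothelial growth factor gene (-0.53, adjusted p = 0.0426). Epo, the kidney hormone that drives red cell formation, had log2 ratios of -0.01 and 0.01, a limma adjusted p of 0.994, and was named after its value was seen.

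Markers of other cell types moved on the same arrays as Hp and Cp. Their counts are to be read beside the 3.67% of all genes called higher and the 1.18% called lower. Of 16 macrophage markers, all tested, 11 were called higher and 0 lower, led by the lysozyme gene Lyz2 (mean log2 ratio 2.50), the protease gene Ctss (2.06), the complement gene C1qa (1.86) and the adaptor gene Tyrobp (1.63). Csf1r, Cd68, Msr1, Itgam and Cd163 were not called. The summed intensity of this list was 17373 and 19186 in mutant RNA and 6002 and 6558 in wild type RNA. Of 12 adipocyte markers, all tested, 7 were called higher and 1 lower, led by the complement factor D gene Cfd (3.17), the carbonic anhydrase gene Car3 (2.33), the adiponectin gene Adipoq (2.23) and the lipid droplet gene Cidec (2.10). The lower one was the lipoprotein lipase gene Lpl (-0.90). Pnpla2 (0.28), Pparg (0.16), Lipe (0.12) and Lep (-0.14) were not called. The summed intensity of the 12 adipocyte markers was 42798 and 44617 in mutant RNA and 20549 and 22746 in wild type RNA. Haptoglobin is made by adipocytes as well as by liver, and ceruloplasmin by macrophages among other cells, and the part of these cells in the ratios of Hp and Cp was not tested.

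Platelet and neutrophil markers stood for other blood cells, to be read beside the 4.85% of all genes called in either direction. Of 10 tested platelet markers 1 was called higher and 0 lower, with a median of -0.06, and the higher one was the chemokine gene Pf4 (1.08 and 1.69, mean 1.38), which macrophages can express as well. The next largest by size, the platelet chemokine gene Ppbp, had -1.0 and -0.23 and was not called. Summed platelet intensity was 1959 and 2088 in mutant RNA and 2041 and 1997 in wild type RNA. Of 7 tested neutrophil markers 0 were called higher and 1 lower (Chil3, a chitinase-like protein gene, at -0.49), while S100a8, Ngp, Camp and Cxcr2 did not pass the filter. Their summed intensity was 1137 and 835 in mutant RNA and 1374 and 1015 in wild type RNA.

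**Figure D4:**
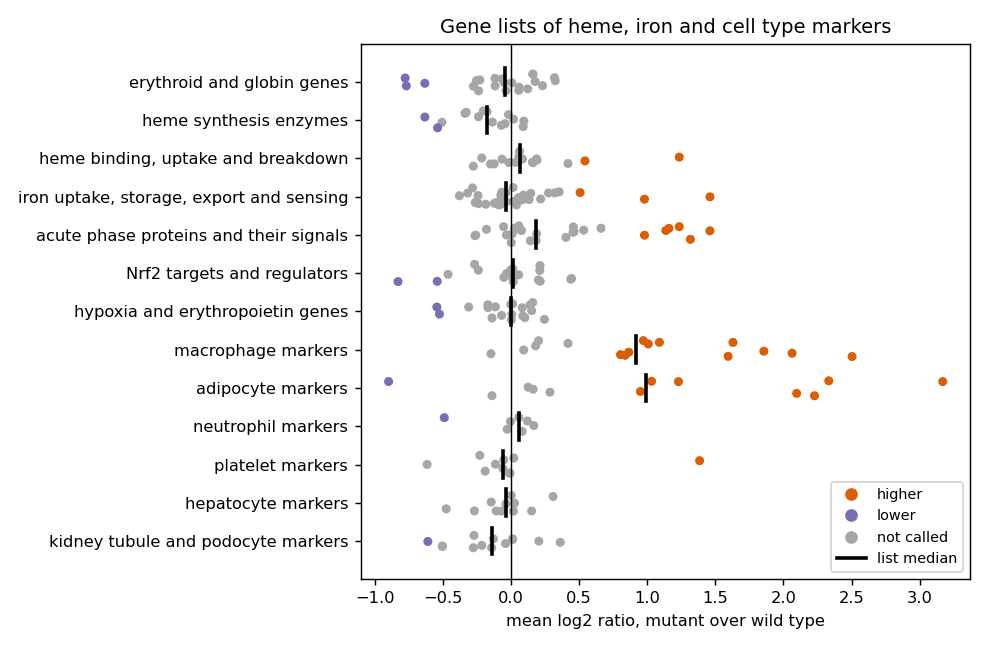
Mean log2 ratio of mutant over wild type (x axis) of every tested gene in 13 lists, one row a list. Orange points were called higher, purple lower and grey not called, and the black bar is the list median; points are spread vertically for legibility only, and the macrophage and adipocyte medians lie near 0.92 and 0.99 while the erythroid median lies at -0.04.

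**Figure D5:**
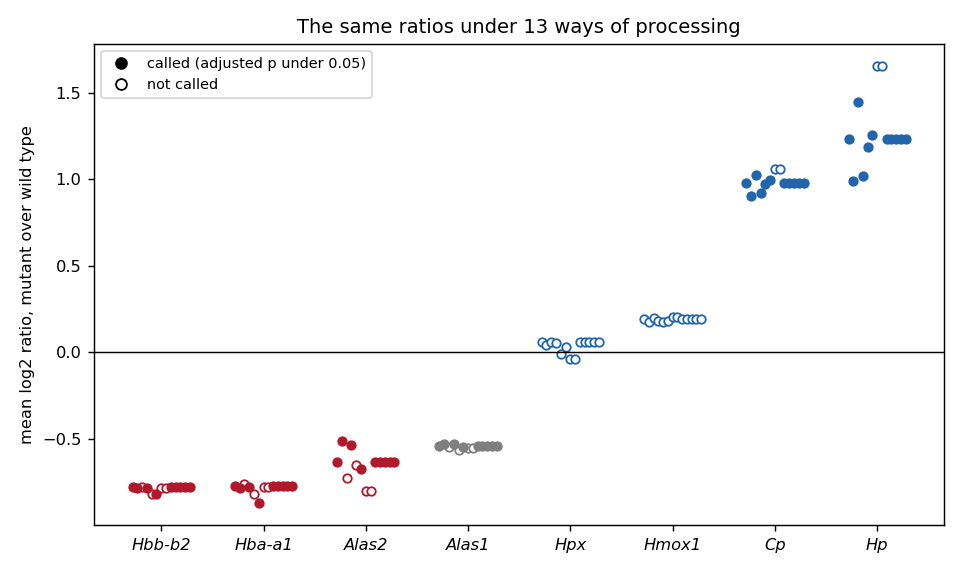
Mean log2 ratio of mutant over wild type (y axis) of the 8 genes under 13 ways of processing, left to right in the same order for each gene. Filled points passed an adjusted p under 0.05 and open points did not; red marks the erythroid genes, grey Alas1 and blue the scavenging and iron genes, and Hpx alone crosses 0.

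The directions of the 7 genes other than Hpx were the same under all 12 alternative ways of processing, as the plot of ratios by way of processing shows. Not all of these could change a direction. Each gene was read by its only probe, so the filters, probe summaries and variance prior altered the p-values but not the ratios. The scanner software's log ratio and the series value table hold the same values. The 4 lower calls were each lost under 4 of the 12 alternatives, and those of Hp and Cp under 2. With an offset of 16 the adjusted p-values were 0.110 for Hba-a1, 0.0516 for Hbb-b2, 0.0653 for Alas2 and 0.117 for Alas1. With median centring in place of loess they were 0.216, 0.0711, 0.0805 and 0.116 for the same genes. With the scanner software's log ratio or the series value table limma called 0 genes in all, with 2539 at an unadjusted p under 0.05. There the adjusted p-values were 0.240 for Hba-a1, 0.182 for Hbb-b2, 0.188 for Alas2 and 0.240 for Alas1, and the adjusted p-values were 0.140 for Hp and 0.149 for Cp. Of the other genes named as called, Lrp1, Gclc, Osgin1, Ndrg1 and Slc34a1 lost their calls under the same 4 alternatives as the globins, and Trf, Vegfa and Chil3 also with no filter on dim spots. Lpl lost its call with an offset of 16 and with the scanner software's log ratio or the value table.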

How the data were processed

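Per the labels' protocols, 500 ng of total RNA was amplified and dye-labelled, and 750 ng of cRNA per dye was hybridised over 17 h. Per the file headers, Agilent Feature Extraction 8.1.1.1 wrote a mean and a local background intensity for each spot and channel, and a log10 ratio of Cy5 over Cy3 after its own dye normalization. The deposited value table of the series holds that log10 ratio with its sign turned (largest difference 0), so its scale, centring and direction are known. The genome build is not given in the sources used here.

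With limma 3.58.1 in R 4.3.3, mean signals were corrected by normexp (offset 50) against the median background, and each array was normalized by loess with control spots at weight 0. Ratios were turned to mutant over wild type. Control spots and 88 outlier spots were left out, and a spot was kept where its mutant channel, or its wild type one, was well above background on both arrays. Probes were grouped into genes by the name in the file, with the brightest probe standing for its gene. A gene with several names in the file is therefore counted under each. Updated names were then given by accession (14302 spots), current symbol (2439) or older symbol (2300), and the rest kept the name in the file (2277). The mean log2 ratio of 18590 genes was tested against 0 with lmFit and eBayes of limma (1 residual degree of freedom), with Benjamini-Hochberg adjustment over all genes. The offset draws ratios of dim spots towards 0. The steps were tested on simulated data. Slide, scan and dye orientation cannot be told apart.

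The genes and the lists were chosen with earlier results of these data known. The rule for named genes took the 10 genes, Glis2, up to 4 called genes of each list by size, the largest 2 where fewer than 2 were called, and the defining markers of other cell types. Genes given in the text without a call beyond that rule were chosen after their values were seen. Alternatives covered background, offset, normalization, source of the ratio, filter, probe summary, variance prior and each array alone.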

Additional observations from a re-analysis of the deposited data

How the results depend on the processing

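Under 12 alternatives the mean log2 ratios ranged from -0.87 to -0.76 for Hba-a1, -0.82 to -0.78 for Hbb-b2, -0.80 to -0.51 for Alas2, -0.57 to -0.53 for Alas1, 0.18 to 0.20 for Hmox1, 0.99 to 1.65 for Hp and 0.91 to 1.06 for Cp. Hpx turned to -0.0073 under median centring within arrays, to -0.0363 with the scanner software's log ratio or the series value table, and to -0.0590 without replicate 2; it was called in none of these. Genes called higher numbered 682 with the settings of the report, 1116 without background subtraction, 289 with offset 16, 230 with median centring, 1537 with a trended and robust prior and 0 with the scanner software's log ratio or the value table, where 2539 genes, in either direction, had an unadjusted p under 0.05. Genes called lower numbered 220, and 523, 53, 41, 935 and 0 in the same order of settings, with 388 at offset 100. Of the 10 genes of the report, 2 were called higher, and 0 with the scanner software's log ratio or the value table; 4 were called lower, and 0 with offset 16, median centring, the scanner software's log ratio or the value table. Cause of these losses was not tested. The erythroid minus scavenging difference of -1.36 ranged from -1.42 to -1.32 over the alternatives. The filters, probe summaries and variance prior could change neither this difference nor the ratios of its genes. The difference was -1.24 and -1.32 on the single arrays, and -1.29 without Hba-a1, an alternative chosen after seeing the data. Both genotypes share each array, so the test of the ratio against 0 is already paired by array. Arrays limit the precision by their number, 2, and Hpx and Tfrc by their low signal over background.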
